A study of Mus musculus with 2 samples.

Results

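Of the 26844 EP300 peaks analysed in newborn mouse liver, 2595 had their summit more than 100 kb from every transcription start site (TSS) of a protein-coding transcript, a share of 9.67% (95% Clopper-Pearson interval 9.32 to 10.03%, which covers counting error only, as do all intervals here). These distant peaks were picked by position alone, with the TSSs of GENCODE release M21, on chromosomes 1 to 19 and X. The other peaks fell into 18642 at 1 to 100 kb and 5607 within 1 kb of a TSS, called promoter peaks here.

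The study profiled EP300 by chromatin immunoprecipitation sequencing (ChIP-seq) in 1 group of 2 replicates, both of liver tissue from mice of strain B6NCrl at postnatal age 0 days. The labels number them as biological replicates yet name one biosample and one donor for both, so whether they come from separate animals is unknown, and they give no genotype or treatment. The peaks are those of the authors' optimal list, which is thresholded by the irreproducible discovery rate (IDR), on mouse build mm10 (GRCm38). The signal value is the authors' score for a peak, has no stated scale, and is read within a list only.

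The acetyltransferase EP300 (p300) has no sequence-specific DNA binding of its own and is brought to enhancers and promoters by transcription factors. An enhancer can act on a far-off gene, across other genes, so the genes on either side of a distant peak are its neighbours and not its known targets. The newborn liver still makes blood cells, and its hepatocytes stand beside red cell precursors and blood progenitors. In red cell precursors GATA1, together with TAL1 at joined E-box and GATA sequences, marks many enhancers, while HNF4, FOXA and CEBP factors do so in hepatocytes.

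The tissue label was read against gene lists by asking for an optimal peak within 10 kb of a TSS. Such a peak stood by 37 of 39 red cell genes, 42 of 51 hepatocyte metabolism and secreted protein genes and 0 of 30 genes of other tissues (background 38.5% of all protein-coding genes). Hbb-bh1, Slc25a37 and Serpina1a were among the red cell and hepatocyte genes without one.

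The strongest distant peaks are shown first by sequence, since nearly all of them hold a GATA sequence close to the summit. Each line gives the 101 bases centred on the summit, plus strand of GRCm38 and 5′ to 3′, with the flanking genes to the left and right as its name and capitals at GATAA or its reverse complement TTATC. They are 11 of the 12 distant peaks of highest signal, from the strongest down.
Map3k1/Ankrd55, chr13:111940983-111941083: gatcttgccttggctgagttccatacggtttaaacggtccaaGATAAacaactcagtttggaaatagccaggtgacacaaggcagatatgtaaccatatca
Inhba/Sugct, chr13:17027971-17028071: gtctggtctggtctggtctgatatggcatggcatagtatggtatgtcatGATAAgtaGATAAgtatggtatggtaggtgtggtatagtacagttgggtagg
Gadd45a/Serbp1, chr6:67161727-67161827: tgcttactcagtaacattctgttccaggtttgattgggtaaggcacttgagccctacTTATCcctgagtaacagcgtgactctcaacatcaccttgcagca
Nfia/Tm2d1, chr4:98190114-98190214: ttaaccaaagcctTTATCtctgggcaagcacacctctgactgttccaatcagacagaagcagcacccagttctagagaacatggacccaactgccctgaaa
Fam49a/Mycn, chr12:12488252-12488352: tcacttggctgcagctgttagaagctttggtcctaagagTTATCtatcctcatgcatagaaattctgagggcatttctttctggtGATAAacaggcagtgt
Fgf10/Nnt, chr13:119232529-119232629: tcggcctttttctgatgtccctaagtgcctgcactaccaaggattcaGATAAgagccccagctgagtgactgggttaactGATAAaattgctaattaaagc
Runx1/Setd4, chr16:93129647-93129747: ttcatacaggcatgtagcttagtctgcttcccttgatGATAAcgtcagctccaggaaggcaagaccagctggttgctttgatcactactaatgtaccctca
Bmp4/Cdkn3, chr14:46539968-46540068: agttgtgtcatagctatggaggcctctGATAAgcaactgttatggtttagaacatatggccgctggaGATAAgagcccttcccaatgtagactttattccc
Gse1/Gse1, chr8:120371908-120372008: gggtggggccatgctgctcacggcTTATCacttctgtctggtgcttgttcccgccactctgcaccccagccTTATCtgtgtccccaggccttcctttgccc
Efna5/Fbxl17, chr17:63312493-63312593: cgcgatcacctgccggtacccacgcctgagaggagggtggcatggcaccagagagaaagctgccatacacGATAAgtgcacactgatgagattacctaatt
Prkce/Gm10309, chr17:86313572-86313672: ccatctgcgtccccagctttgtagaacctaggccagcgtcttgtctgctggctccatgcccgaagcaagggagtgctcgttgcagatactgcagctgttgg
Of these 11 windows, 10 held GATAA, in 5 of them at 2 places. The window between Prkce and Gm10309 held none and has no capitals.

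A second set shows the strongest distant peak beside Myc, Klf3 and Kit, genes of growth and of blood cell formation whose gaps are described further on. Capitals again mark GATAA on either strand. This set and the next were chosen after their values were seen.
Myc/Gsdmc, chr15:62221196-62221296: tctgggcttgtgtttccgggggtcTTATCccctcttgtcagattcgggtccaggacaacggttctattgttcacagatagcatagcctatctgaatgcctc
Tbc1d1/Klf3, chr5:64588091-64588191: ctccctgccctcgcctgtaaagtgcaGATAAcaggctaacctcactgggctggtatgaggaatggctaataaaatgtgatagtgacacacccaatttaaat
Pdgfra/Kit, chr5:75359002-75359102: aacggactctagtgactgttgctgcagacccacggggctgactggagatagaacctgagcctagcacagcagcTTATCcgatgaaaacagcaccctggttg

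The third set shows distant peaks beside 3 genes of liver metabolism, Ppargc1a, Lpin1 and Irs2, each picked because it holds a FOXA match on either strand, which the capitals mark. The other strong peak beside Ppargc1a, with a signal of 237, held a CEBP and no FOXA match and is not shown. The FOXA letters searched were TGTTTAC and also TGTTTGC, and the same with another base in the second place, TATTTAC and also TATTTGC.
Adgra3/Ppargc1a, chr5:51039920-51040020: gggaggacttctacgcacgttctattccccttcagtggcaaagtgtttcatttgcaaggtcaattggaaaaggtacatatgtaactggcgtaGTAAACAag
Trib2/Lpin1, chr12:16046842-16046942: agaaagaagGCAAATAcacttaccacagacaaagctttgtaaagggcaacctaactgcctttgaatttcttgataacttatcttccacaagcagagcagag
Myo16/Irs2, chr8:10435611-10435711: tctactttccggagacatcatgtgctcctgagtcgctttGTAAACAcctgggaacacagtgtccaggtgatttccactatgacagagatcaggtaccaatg
The window beside Lpin1 also held GATAA, and the windows beside Ppargc1a and Irs2 did not.

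The 15 strongest distant peaks were high in both replicates, ranking between 5 and 151 of 300000 in replicate 1 and between 4 and 125 in replicate 2. The highest lay between Map3k1, a kinase of stress signalling, and Ankrd55, with a signal of 601 in the optimal list, 337 in replicate 1 and 263 in replicate 2. It ranked 4 among all 26844 optimal peaks, 132 kb from the TSS of Map3k1 and 347 kb from that of Ankrd55, upstream of both. Signal in replicate 1 was above that in replicate 2 for all 15.

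Strong distant peaks flanked genes of blood formation. Between Fam49a and Mycn, a growth-promoting transcription factor gene, a peak lay 226 kb from Fam49a and 452 kb from Mycn. It had 530.2 in the optimal list, 298 in replicate 1 and 228 in replicate 2. Beside Runx1, which blood stem cells need to form, a peak 304 kb upstream had 509, 293 and 218. Between Nfia, a CCAAT-binding factor of the NFI family, and Tm2d1 a peak had 553, 309 and 244. It lay 310.0 kb downstream of the Nfia TSS and nearer to that of Tm2d1, at 193 kb. Mycn, Runx1 and Nfia belong to the lists of blood genes used below, and each of the 3 peaks ranked in the first 32 of both replicate lists.

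Other strong distant peaks lay between genes of signalling and growth control. Between Gadd45a, a stress-response gene, and Serbp1 the values were 557, 319 and 239, at 124 and 105 kb from the TSSs. A peak in an intron of Sugct, 1014 kb from Inhba, which encodes an activin subunit, had 559, 313 and 245. That window was 21.8% repeat sequence, against 0% in the other 14. The peak between Fgf10, a growth factor gene, and Nnt had 525, 307 and 220, and the one between Bmp4, a morphogen gene, and Cdkn3 had 494, 291 and 205.

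Another 6 of the 15 had optimal signals from 415 to 457. They lay between 2 TSSs of Gse1 (457, 273 and 186), between Efna5 and Fbxl17 (444, 271 and 175) and in an intron of Prkce (441, 255 and 183). The last 3 lay in an intron of Arid1b, a chromatin-remodelling subunit (441, 275 and 165), between 1700003H04Rik and Ndst4 (428, 239 and 188) and between 2 TSSs of Megf11 (415, 244 and 165). In all, 7 of the 15 were intronic and 8 intergenic. All 15 were also in the authors' conservative list. Only coding transcripts count in the rule, and a noncoding transcript of the flanking gene started nearer for 3 of them: 76.4 kb away for Serbp1, 58.9 kb for Arid1b and 13.2 kb for Megf11.

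**Figure D1:**
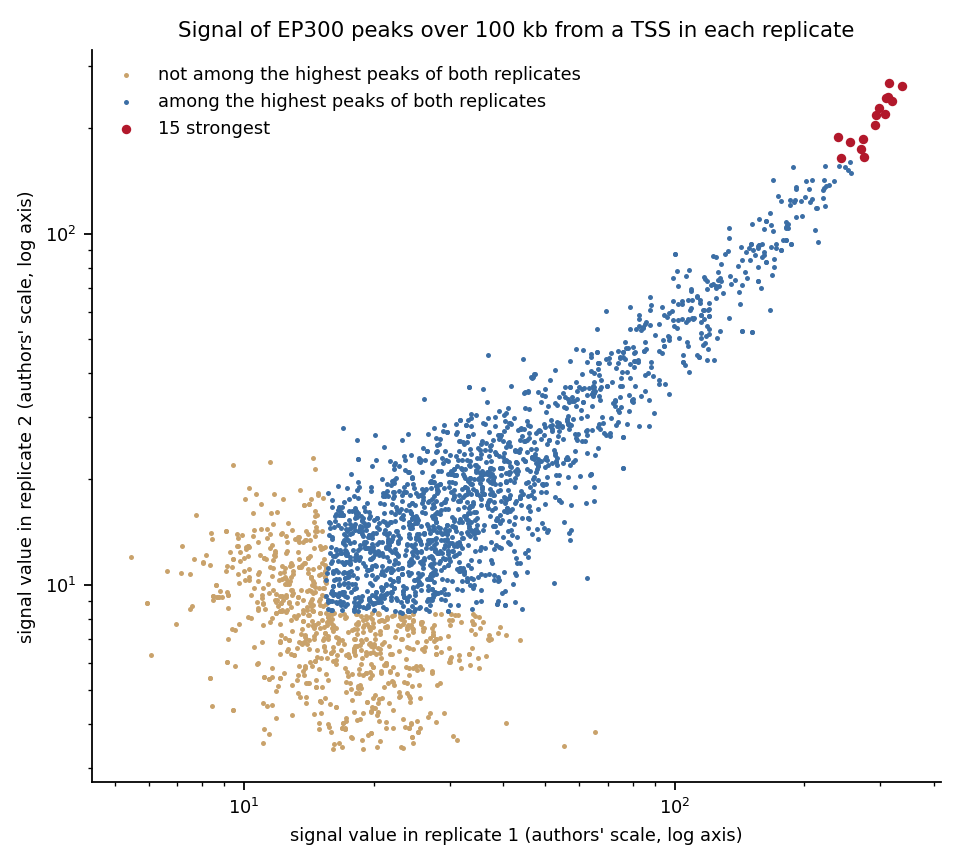
Signal value of each distant peak in replicate 1 (x axis) and replicate 2 (y axis), both on the authors' scale and log axes, for the 2531 with a peak in both lists. Blue points were among the highest peaks of both replicates, tan points were not, and the 15 strongest, in red, lie at the upper right corner of the cloud.

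Most distant peaks recurred in both replicates, which their selection partly builds in. The optimal list was itself derived from both replicates, so the shares below are no independent replication. A peak counted as recurring when it overlapped, by at least 1 base, one of the 26844 highest peaks of each replicate list, as many as the optimal list holds. Of the distant peaks 1760 of 2595 did so (67.8%, interval 66.0 to 69.6%; background 67.9% of all optimal peaks), beside 69.1% at 1 to 100 kb (68.4 to 69.7%) and 64.3% of promoter peaks (63.0 to 65.5%). A further 418 were among the highest of replicate 1 only, 267 of replicate 2 only and 150 of neither.

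Recurrence followed signal, which the definitions largely build in. The optimal signal is that of the list pooled from both replicates, and a recurring peak must overlap one of the highest of each. The gradient therefore cannot tell whether stronger peaks are more reproducible. When all optimal peaks were cut into 5 equal parts by signal, 460 of 460 distant peaks in the strongest part recurred. The next parts gave 98.3%, 83.0%, 43.4% and, in the weakest, 17.6% (90 of 511). Peaks at 1 to 100 kb gave 99.98%, 98.1%, 82.6%, 40.0% and 20.7%. Distant peaks that did not recur had a median signal of 24.4. Against the full replicate lists of 300000 peaks each, 2531 of 2595 distant peaks (97.5%; background 95.7%) had a peak in both. The conservative list, also derived from both replicates, held 1992 of them (76.8%; background 74.4%).

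Some distant peaks of moderate signal were among the highest peaks of replicate 1 and not of replicate 2. Between Tbc1d1 and Klf3, a peak 111 kb from Klf3 had 68.6 in the optimal list and 65.2 in replicate 1, but 3.80 in replicate 2, where it ranked 230247. A peak 185 kb upstream of Meis1, a homeobox factor of blood stem cells, had 58.9, 55.2 and 3.47. A peak in an intron of Rapgef4 had 53.0, 43.6 and 6.95. A peak 112 kb downstream of Myc had 49.4 and 36.7 with no overlapping peak in replicate 2, and one 152 kb from Rreb1 had 48.4 and 45.6, likewise with none. The first 3 had a low peak in replicate 2 and the last 2 had none there, and none of the 5 was in the conservative list.

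Distant peaks were about as high as nearer ones. The median optimal signal of distant peaks was 37.3 (quartiles 26.2 and 60.4, range 7.36 to 601), against 38.9 at 1 to 100 kb and 36.8 at promoters. On the log2 scale the distant median differed from that at 1 to 100 kb by -0.063 in the optimal list, -0.092 in replicate 1 and -0.068 in replicate 2. Against promoters the difference was 0.020 in the optimal list, -0.16 in replicate 1 and 0.086 in replicate 2, so its sign differed between the replicates. Distant peaks made up 14 of the 100 strongest optimal peaks (interval 7.87 to 22.4%), 52 of the 500 strongest, 100 of the 1000 strongest and 437 of the 5000 strongest (8.74%), against 9.67% of all.

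Signal values of both replicates rose together across distant peaks, with Spearman's rho 0.729 over 2531 peaks that share both libraries, against 0.764 at 1 to 100 kb and 0.632 at promoters. The median log2 ratio of replicate 1 to replicate 2 was 0.91 in distant peaks (SD 0.63), 0.93 at 1 to 100 kb and 1.12 at promoters. The lists have no stated scale, so this offset cannot be read as more or less binding.

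Most distant peaks lay not far beyond the limit. The median distance to the nearest TSS was 167 kb (quartiles 127 and 250.2), and 1600 of 2595 (61.7%) lay at 100 to 200 kb. Another 123 (4.74%) lay over 500 kb and 25 over 1 Mb from any TSS. Just over the limit were a peak in an intron of Ppp1r9a (100.003 kb), one beside Mki67 (100.022 kb) and one in an intron of Adamtsl1 (100.042 kb), with optimal signals of 44.2, 341 and 44.1. Just under it were peaks near Ccnl1 (99.948 kb), in an intron of Rgl1 (99.943 kb) and near 4930544G11Rik (99.939 kb), with 114, 31.3 and 76.5.

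The 3 farthest peaks were weak to middling. The first lay between Sel1l and Flrt2, 1463 kb from the nearest TSS, with 22.9 in the optimal list, 10.2 in replicate 1 and 12.04 in replicate 2, and was not among the highest peaks of replicate 1. One between Tenm2 and Mat2b, 1446 kb away, had 41.0, 23.3 and 15.6, and one between Nudt12 and Efna5, 1407 kb away, had 40.3, 34.6 and 8.92. None of the 3 windows held GATAA.

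Across the distance bins signal, recurrence and the GATAA share did not run steadily one way, while the intronic share mostly fell. The median signal was 39.5 at 100 to 150 kb, 36.5 at 200 to 300 kb, 34.1 at 500 to 1000 kb (98 peaks) and 39.9 over 1000 kb (25 peaks). The recurring share ran from 64.3 to 72.0% over the 6 distance bins, and the intervals of all 6 overlapped. The share with GATAA lay between 35.4% at 300 to 500 kb and 49.0% at 500 to 1000 kb, again with overlapping intervals. The intronic share went from 40.9% at 100 to 150 kb to 26.1% at 150 to 200 kb. It was 11.2% at 500 to 1000 kb and 0% over 1000 kb. The only rise was a small one, from the bin of 200 to 300 kb to that of 300 to 500 kb (18.9%).

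**Figure D2:**
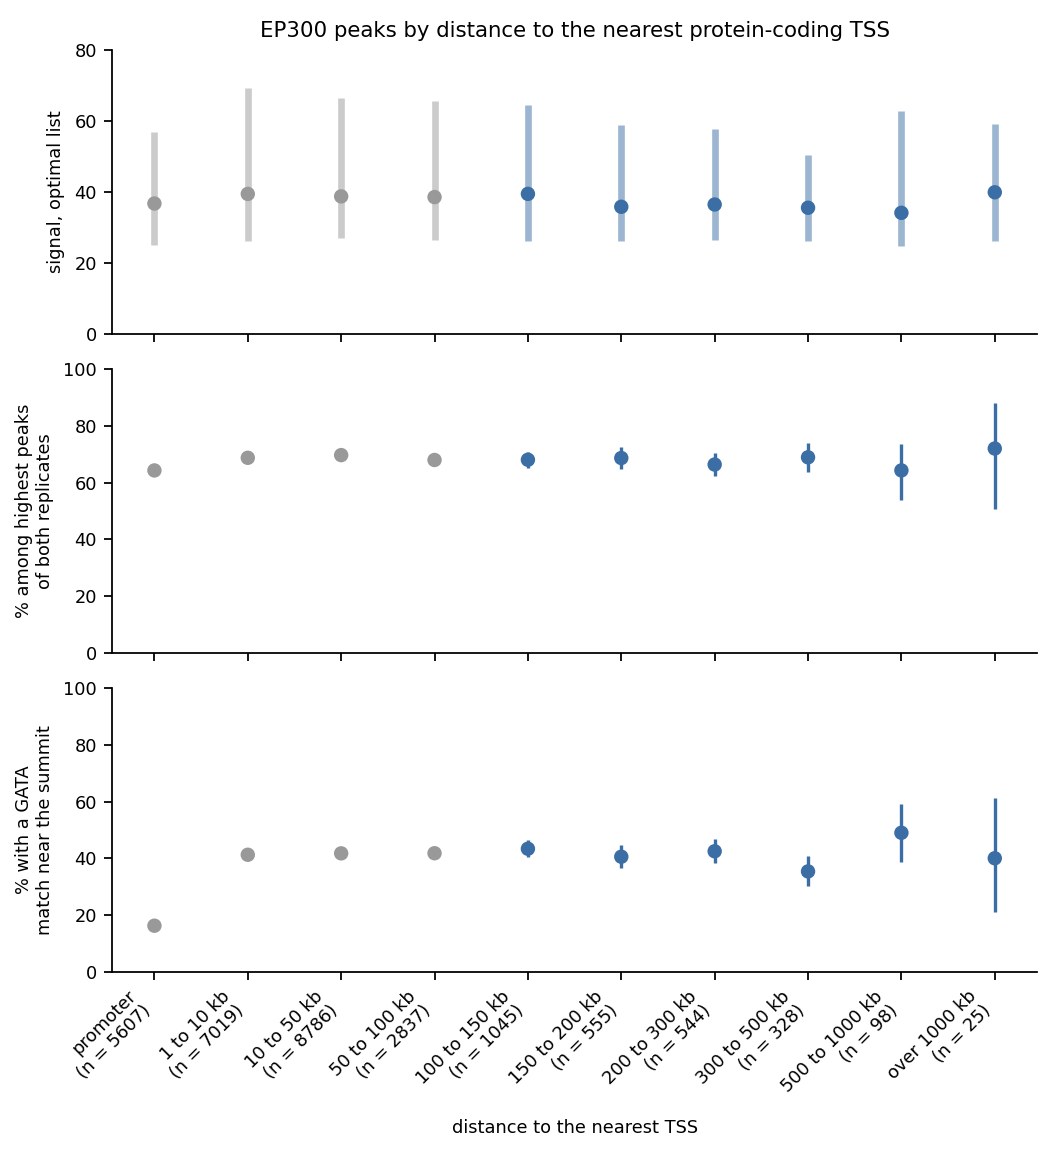
Median signal with quartiles (top), share among the highest peaks of both replicates (middle) and share with a GATA match within 50 bases of the summit (bottom), each by distance to the nearest TSS, with distant bins in blue and nearer bins in grey. Lines in the lower panels are 95% Clopper-Pearson intervals, and beyond 100 kb the middle panel stays between 64.3 and 72.0%.

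Distant sequence was plentiful and held few peaks. Bases over 100 kb from a TSS made up 995 of 2559 Mb (38.9%), and held 2.61 distant peaks per Mb, against 15.5 peaks per Mb in the rest. Chromosome 13 had the most for its distant sequence, 238 peaks or 5.07 per Mb, and chromosome 10 followed with 3.75. Chromosome X had the fewest, 35 peaks or 0.508 per Mb, with chromosome 14 next at 1.80. Chromosome X also had the fewest optimal peaks of any kind, 413. Of these 8.47% were distant (interval 5.97 to 11.6%, which covers the 9.67% of all optimal peaks). On chromosome 13 the distant share of optimal peaks was 17.1% (15.2 to 19.2%). The other 16 chromosomes lay from 2.27 to 3.08 distant peaks per Mb. The number of X copies per cell is not given by the labels, since sex was not collected.

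Distant peaks were mostly intergenic. Of the 2595, 1837 lay in no protein-coding gene (70.8%, interval 69.0 to 72.5%), 743 in an intron (28.6%, 26.9 to 30.4%) and 15 in an exon. Of all optimal peaks 44.8% were intronic, and of those at 1 to 100 kb 52.6%. Introns take up 19.7% of the distant sequence. Median signal was 36.8 for intronic and 37.4 for intergenic distant peaks, and 67.0% and 68.1% recurred. With genes of every type counted, 43.6% were intronic, 2.54% exonic and 53.8% intergenic.

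The introns belonged to 306 host genes, and for 716 of 743 intronic peaks the host was also a flanking gene. Rad51b, a gene of homologous recombination, held 24 distant peaks with signals from 10.9 to 181 (median 35.3), of which 16 recurred. Its strongest had 181, 109 and 69.6 in the optimal list and replicates 1 and 2. Sox5 and Vps13d held 12 each, and Mad1l1 and Rasgef1b 11 each. The strongest of Vps13d, a lipid-transfer protein gene, had 314, 190 and 123, that of Mad1l1, a spindle checkpoint gene, 220, 144 and 71.3, and that of Rasgef1b 197, 127 and 70.8. Sox5, a transcription factor gene of cartilage and neurons, stood lower, at 71.9, 47.3 and 23.1 for its strongest.

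Far from coding starts is not far from every start. A TSS of a noncoding gene lay within 1 kb of 130 distant peaks (5.01%; background 6.59% of all optimal peaks), within 10 kb of 641 and within 100 kb of 2163 (83.4%). The strongest of the 130 was the Efna5 to Fbxl17 peak, 0.428 kb from the noncoding gene 4930405O22Rik. The next lay between 4930474N05Rik and Ccser2, 0.605 kb from Gm17940, with 331, 208 and 126, and had 40.6% of its window in repeats. Another lay in an intron of Dscam, 0.025 kb from AC167169.1, with 300, 177 and 124. A noncoding transcript of a protein-coding gene started within 100 kb of 461 distant peaks (17.8%).

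Many distant peaks shared a gap with others. Gaps over 200 kb between neighbouring TSSs are the only places they can lie, save at a chromosome's end, and 836 of 2528 such gaps held at least 1 (background 33.1%). Of these, 323 held 1 peak, 177 held 2 and 336 held 3 or more, and the 336 had 1917 of the 2595. Gaps with a distant peak had a median width of 504 kb, those without one 328 kb. Of 350 gaps over 1 Mb, 170 held a distant peak, and the widest empty one spanned 4671 kb. Some counts include peaks side by side, since 167 distant peaks (6.44%, beside 7.21% at 1 to 100 kb) overlapped a stronger optimal peak. Such a pair can share its match in a replicate. Those 167 had a median signal of 13.1, and without them 2428 distant peaks and 317 gaps with 3 or more remained.

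The fullest gap ran from Rad51b to Zfp36l1, an mRNA-decay gene, with 36 distant peaks in 815 kb, 24 of them recurring and 33 apart from any stronger peak. Signals there ran from 10.9 to 181 with a median of 35.3. Many peaks of moderate height filled it, and none was among the 15 strongest.

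The gap from Myc to Gsdmc held 30 in 1821 kb, with 25 recurring and 26 apart. Myc, a driver of growth and division, stands at its left end, and the noncoding gene Pvt1 just beyond. The strongest lay 234 kb from Myc with 283, 181 and 104 in the optimal list and replicates 1 and 2, and 1.36 kb from the nearest noncoding TSS, of Pvt1. Next came a peak 172 kb from Myc with 276, 186 and 93.7. The others thinned out with distance, to 3 peaks at the far end with optimal signals of 43.6, 58.9 and 42.3 at 1513, 1661 and 1671 kb, each among the highest of both replicates. As background, a cluster of blood enhancers is known far downstream of Myc, and its coordinates were not used here.

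Between Irf2bp2 and Tomm20, 25 distant peaks stood in only 352 kb, or 71.1 per Mb, with 20 recurring and 20 apart. Their signals ran from 9.74 to 253, and the highest had 253, 170 and 84.7. Between Tbc1d1 and Klf3, a KLF-family repressor active in red cell precursors, 22 stood in 573 kb, 16 of them recurring and 19 apart. The 4 strongest had optimal signals of 325, 276, 260 and 251 and lay 202 to 235 kb upstream of Klf3. Their values ran from 161 to 197 in replicate 1 and from 88.6 to 124 in replicate 2. All 4 windows held GATAA.

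The gap from Map3k1 to Ankrd55 was the one full gap with a peak of the first 15. Its 21 distant peaks, 19 recurring, had the highest median of the 8 fullest gaps, 72.8, and a range from 20.96 to 601. The second strongest there had 227, 143 and 84.0. Between Foxo1, a factor of gluconeogenesis under insulin control, and Cog6, 20 stood in 749 kb, 13 recurring, the strongest 278 kb from Foxo1 with 244, 157 and 92.8. The gap from Csnk1g3 to Zfp608 held 19 with a highest signal of 121, and that from Gm5148 to Ankrd50 held 18 with a highest of 115, of which 9 recurred.

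**Figure D3:**
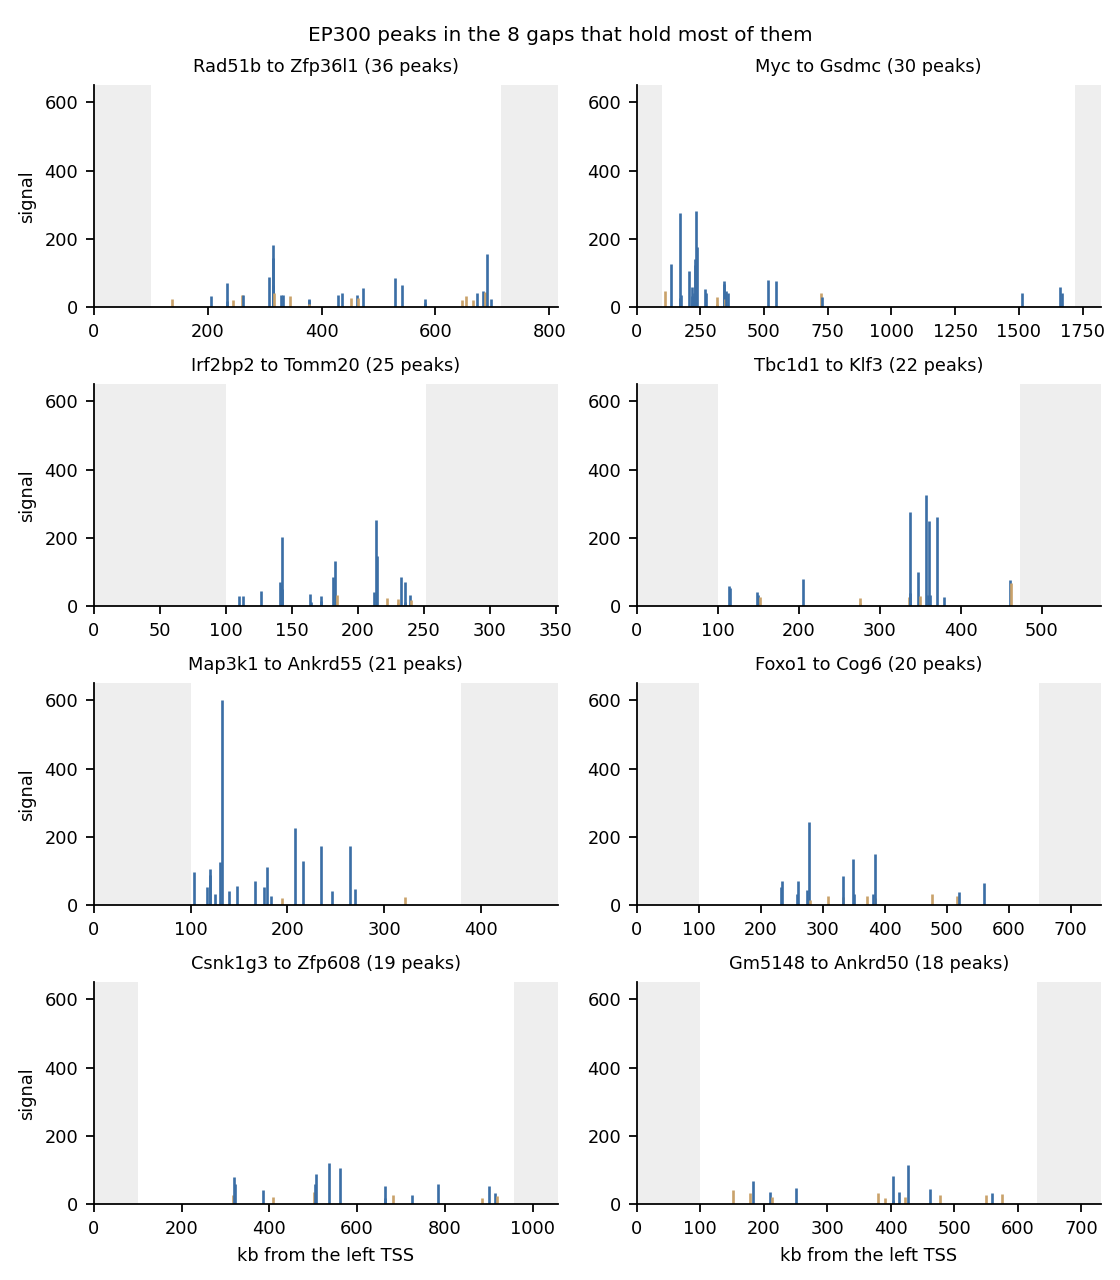
Distant peaks in the 8 gaps that hold most of them, as lines at their distance from the left TSS (x axis, kb) with the optimal signal as height (y axis, authors' scale). Blue lines were among the highest peaks of both replicates, tan lines were not, and grey bands are the 100 kb next to each TSS; the Map3k1 to Ankrd55 gap holds the tallest line, at 601.

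At closer range, 1312 distant peaks stood within 12 kb of another, in 503 clusters of 2 or more, and 1283 stood alone. The same count was not made for nearer peaks, so it does not show whether distant peaks cluster more than others. Clusters of 4 or more numbered 67. The largest, of 11 peaks each, were those between Tbc1d1 and Klf3 (42.9 kb long, signals summing to 1407) and between Irf2bp2 and Tomm20 (28.4 kb long, summing to 724). A cluster of 9 over 32.1 kb lay 204 kb and more from Myc, and one of 8 between Map3k1 and Ankrd55 summed to 1112.

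Genes of blood progenitors and of liver identity often flanked distant peaks, as did wide gaps in general. Of all 3767 genes beside a gap over 200 kb, 39.0% had a distant peak in it. The share was 52.8% for those with a gap over 500 kb and 54.4% for those with one over 700 kb. Among listed genes beside a gap over 200 kb, 15 of 16 blood stem and progenitor genes had one (interval 69.8 to 99.8%), with a median widest gap of 722 kb. Among hepatocyte transcription factors it was 14 of 15 (68.1 to 99.8%), with a median of 752 kb. Red cell and megakaryocyte factors had 5 of 7, red cell genes 2 of 3, white cell genes 10 of 16, endothelial and stromal genes 9 of 14 and hepatocyte metabolism genes 6 of 12. Genes of other tissues had 6 of 16 (15.2 to 64.6%), although their median widest gap was 1015 kb. The lists were chosen with earlier results of these data known, so their shares are no independent test.

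In the blood progenitor list, Myc flanked 36 distant peaks on its 2 sides, Kit 14, Runx1 13 and Zeb2 11, and Foxp1 flanked none. Kit encodes the stem cell factor receptor, on which blood progenitors and mast cells depend. In the gap between Pdgfra and Kit 10 distant peaks stood, 9 of them recurring, with optimal signals from 31.1 to 204. The strongest, 216 kb upstream of Kit, had 204, 127 and 74.7, and the next, 114 kb upstream, had 198, 123 and 72.0. Another, 197 kb upstream, had 170, 117 and 57.1. All 3 windows held GATAA.

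All 13 peaks in the gap upstream of Runx1 recurred, with optimal signals from 27.5 to 509. After the peak of 509 came one at 322 kb with 379, 224 and 156, and others at 371 kb (168, 110 and 57.1) and 305 kb (166, 104 and 63.0). Cd34, a surface marker of progenitors, flanked 8, the strongest in an exon of Plxna2 123 kb upstream, with 330, 191 and 136.

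Among red cell genes, Car2, a carbonic anhydrase of red cells, had a single distant peak 111 kb downstream with 51.4, 30.2 and 21.1. Among the red cell factors Klf3 flanked 22, Nfia 9, Bcl11a 3, Sox6 2 and Zfpm1 1, and Bach1 and Foxo3 none. The second beside Nfia, 307 kb from its TSS and 196 kb from that of Tm2d1, had 154, 99.6 and 54.7.

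The 56 distant peaks beside white cell genes had a median signal of 38.5. The strongest, in an intron of Ikzf2, a factor of regulatory T cells, had 220, 140 and 81.0. Beside Bcl6, a repressor of B cells that hepatocytes also use, peaks 101 and 211 kb upstream had 105, 72.8 and 32.2, and 92.5, 60.6 and 29.9. A peak between Nr5a2, a bile acid gene regulator, and Ptprc, which encodes CD45, had 122, 78.6 and 42.4 and belongs to 2 lists. It lay 253 kb from Nr5a2 and 962 kb from Ptprc.

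Hepatocyte transcription factors had many distant peaks of moderate signal. Nr2f2 flanked 14, Sall1 9, Onecut1 and Tcf7l2 7 each, Rora and Tbx3 6 each, and Hnf4g none. The strongest lay 190 kb from Onecut1, a factor of liver and bile duct formation, with 176, 115 and 64.6. One 101 kb from Foxa2, a pioneer factor of the liver, had 139, 85.1 and 55.3. One 127 kb from Prox1, which hepatoblasts need to migrate, and 120 kb from Smyd2 had 133, 78.8 and 53.4. The peak beside Onecut1 ranked 145 among distant peaks, and those beside Nfia, Mycn and Runx1 ranked 5, 6 and 8.

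Hepatocyte metabolism genes with distant peaks were few, and 3 of the 6 flanked most of the 38 peaks. Irs2, an adaptor of the insulin receptor, flanked 15, Ppargc1a, the coactivator of gluconeogenesis and mitochondrial growth, 12, and Lpin1, a phosphatidate phosphatase of lipid synthesis, 8. On the Adgra3 side of Ppargc1a a peak 514 kb away had 244, 159 and 85.8, and one 264 kb away had 237, 133 and 104. Beside Lpin1 a peak 543 kb away, and 230 kb from Trib2 on its other side, had 209, 123 and 86.6. In an intron of Myo16, 573 kb from Irs2, a peak had 206, 135 and 71.9. The median signal of the 38 peaks of this list was 58.4, against 37.3 for all distant peaks. Apob, Arg1, Cd36, Egfr, Ghr and Otc, the other 6 beside a gap, had none.

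In the endothelial and stromal list, Maf flanked 18, Pdgfra 10 (the gap it shares with Kit), Zfhx3 6 and Kdr 4. The strongest outside that shared gap lay 276 kb from Zfhx3 with 97.2, 67.7 and 30.1. Among genes of other tissues, Dscam, a neuronal adhesion gene, had 5 intronic peaks, the strongest with 330, 206 and 123. Cdh2, the N-cadherin gene, had 4, the strongest with 83.0, 50.3 and 31.0. Lrrtm4, Cntnap2, Shh, Sox2 and 6 others had none.

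Some flanking genes had distant peaks and none near their own starts. Of the 1471 genes that flank a distant peak in a wide gap, 933 (63.4%) had no optimal peak within 10 kb of a TSS. Of all 21646 protein-coding genes, 8324 (38.5%) had such a peak, so most genes lack one. The count without one was 10 of 14 for hepatocyte transcription factors, with Nr2f2, Onecut1, Foxa2 and Prox1 among them. For blood progenitor genes it was 8 of 15, with Mycn, Cd34 and Ets1 among them. It was 2 of 6 for hepatocyte metabolism genes, Irs2 and Igf1. For Dscam, Cdh2 and the other 4 genes of other tissues it was 6 of 6. That value was fixed beforehand, since 0 of the 30 genes of that list had a peak so near.

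**Figure D4:**
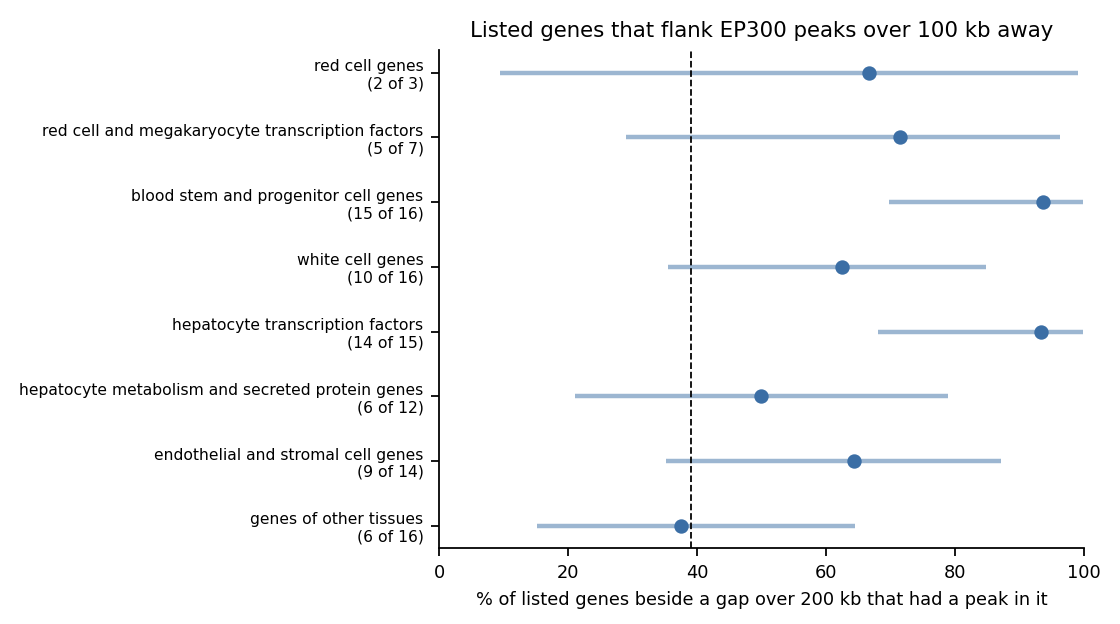
Share of listed genes beside a gap over 200 kb that had a distant peak in it (x axis, percent), by gene list (y axis), as points with 95% Clopper-Pearson intervals. The dashed line is the 39.0% of all genes beside such a gap, and for genes with a gap over 700 kb the share was 54.4%. Blood progenitor genes (15 of 16) and hepatocyte transcription factors (14 of 15) lie to the right of the line. Genes of other tissues (6 of 16) have an interval that spans it.

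Within 50 bases of the summit, distant peaks held GATAA about as often as nearer peaks outside promoters, and CACCC and ETS matches at other rates. GATAA, searched on both strands as all motifs were, stood in 1083 of 2595 windows (41.7%, interval 39.8 to 43.7%; background 36.3% of all optimal windows). The share was 41.5% at 1 to 100 kb, 16.2% at promoters and 16.0% in windows 1 kb to each side of distant peaks. The longer AGATAAG, which contains GATAA, stood in 12.02% (background 10.6%), beside 12.5% at 1 to 100 kb, 3.48% at promoters and 1.62% in the side windows. The partial E-box with GATA (CTG, then 7, 8 or 9 of any base, then GATA) stood in 15.4% (background 14.2%). It stood in 16.5% at 1 to 100 kb and in 2.91% of the side windows. It overlaps GATAA where an A follows.

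Windows with GATAA had higher signal. The share was 63.4% in the strongest 20% of distant peaks, 29.3% in the weakest and 82 of the 100 strongest. Median signal was 44.9 with GATAA and 33.7 without, and the share was 45.5% among recurring peaks against 33.9% among the others. ETS matches (CCGGAA or AGGAAG) went the other way, at 12.5% in the strongest 20% and 23.3% in the weakest, with 23.0% in all (interval 21.4 to 24.7%; background 21.9%) and 20.1% at 1 to 100 kb.

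Motifs of hepatocyte factors stood in fewer windows than GATAA and did not follow signal upward. They are longer sequences than GATAA, so the raw shares of these motifs cannot be compared directly. FOXA matches stood in 10.8% of distant windows (background 9.22%), 9.83% in the strongest 20% and 10.8% in the weakest. CEBP matches (TTGCNNAA or TTNCGNAA) stood in 10.4% (background 9.73%), 8.67% in the strongest 20% and 9.63% in the weakest. The HNF4 sequences CAAAGTCCA and CAAAGGTCA stood in 49 windows, 1.89% (background 1.37%), 4 of them in the strongest 20% and 10 in the weakest. At 1 to 100 kb the shares were 10.1% for FOXA, 10.5% for CEBP and 1.47% for HNF4. Against the windows 1 kb to each side, FOXA stood at 10.8 against 7.15%, CEBP at 10.4 against 4.97% and HNF4 at 1.89 against 0.270%. The ratio to the side windows was 1.51 for FOXA, 2.10 for CEBP and 7 for HNF4, the last resting on 14 side windows. For GATAA it was 2.61 and for AGATAAG 7.43.

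Other motifs filled in the picture. E-boxes (CANNTG) stood in 48.3% (background 44.5%) and in 41.5% of the side windows, CACCC, the box of KLF factors, in 20.3% (interval 18.8 to 21.9%; background 23.6%), against 23.3% at 1 to 100 kb, and TGTGGT of RUNX factors in 10.1% (background 9.21%). TGANTCA of AP-1 and NFE2 stood in 7.24% (background 5.62%), the longer GCTGAGTCA in 1.00% (background 0.965%) and an HNF1 match in 9 windows (background 0.268%). At 1 to 100 kb the shares were 47.8% for E-boxes, 10.2% for TGTGGT, 6.24% for TGANTCA, 1.16% for GCTGAGTCA and 0.290% for HNF1. A CTCF match stood in 1 of 2595 windows, 0.0385% (interval up to 0.215%; background 0.320%), against 67 of 18642 or 0.359% at 1 to 100 kb.

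**Figure D5:**
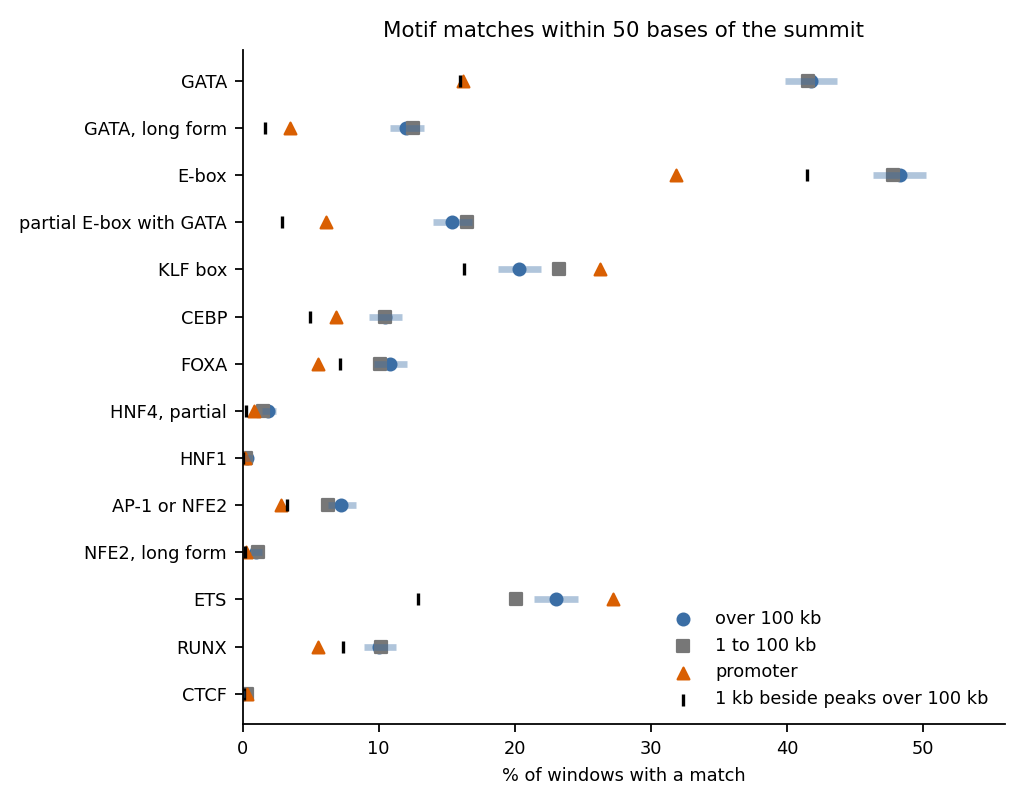
Share of windows with each motif within 50 bases of the summit (x axis, percent) for distant peaks (blue circles, with 95% Clopper-Pearson intervals), peaks at 1 to 100 kb (grey squares), promoter peaks (orange triangles) and windows 1 kb beside distant peaks (black ticks). The GATA share of distant peaks, 41.7%, lies on that of nearer peaks, 41.5%, and far to the right of the side windows, 16.0%.

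Counts by flanking gene are given beside the shares in all optimal windows, 36.3% for GATAA, 9.22% for FOXA and 9.73% for CEBP. GATAA stood in 71 of 128 distant peaks beside blood progenitor genes (55.5%, interval 46.4 to 64.3%). Beside red cell and megakaryocyte factors it was 18 of 37 (48.6%, 31.9 to 65.6%), an interval that covers the share in all windows. GATAA stood in 13 of 73 beside hepatocyte transcription factors (17.8%, 9.84 to 28.5%), near the 16.0% of the side windows. Beside hepatocyte metabolism genes it was 16 of 38 (26.3 to 59.2%), and FOXA and CEBP matches stood in 6 of 38 each (6.02 to 31.3%), intervals that cover the shares in all windows. Beside hepatocyte transcription factors FOXA stood in 5 of 73 and CEBP in 9. Beside genes of other tissues GATAA stood in 10 of 14 (71.4%, 41.9 to 91.6%), the highest share of the 8 lists. Peaks of a gap share their flanking genes, so these counts rest on fewer places than peaks, and no test was made.

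Distant summits lay outside repeats more often than the sequence around them. The summit base was in a repeat for 9.52% (background 9.35% of all optimal peaks), against 21.4% of windows 1 kb to each side and 37.5% of all distant sequence. Distant peaks with the summit in a repeat had a median signal of 33.2, the others 38.0, and GATAA stood in 37.7% and 42.2% of them. Median GC content was 45.5% in distant windows, 47.0% at 1 to 100 kb, 55.4% at promoters and 43.6% in the side windows.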

How the data were processed

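EP300 ChIP-seq peak lists of 2 newborn liver replicates on mm10 were used: 1 list per replicate, a pooled list and the optimal and conservative IDR lists. The signal value of each peak, a peak caller's value with no stated scale, is given as the authors deposited it, and the IDR score likewise is the score the authors deposited. The optimal list carries the signal of the pooled list for 26844 of 26844 peaks. The aligner, peak caller, IDR threshold and read depth were not given in the sources used here. No value therefore has a depth-based error. Of 26883 optimal peaks, 39 outside chromosomes 1 to 19 and X were left out. The files held 0 columns of other series.

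Summits were set against 54050 TSS positions of 21670 protein-coding genes (GENCODE M21). Replicate matches needed 1 shared base, and the strongest overlapping peak gave signal and rank. Motifs were searched in 101-base windows of the soft-masked RefSeq GRCm38 genome, for 14 motif groups. No test across peaks was made, since peaks of 1 list are not replicates; shares have 95% Clopper-Pearson intervals. Scripts used Python 3.11.15, numpy 2.4.6, pandas 2.3.3, scipy 1.17.1 and matplotlib 3.10.9, and selection and motif steps were tested on simulated data. Of 262 symbols in 8 gene lists, 261 matched (Ahsp did not). Named peaks are the 15 strongest, the 8 fullest gaps, up to 4 strongest per gene list, the 3 farthest, 3 on each side of 100 kb, 5 host genes, 3 at noncoding TSSs and the 5 strongest not among the highest peaks of both replicates; other peaks of a gap or list were named after their values were seen. Members, gene lists and motifs were chosen with earlier results of these data known. Alternatives changed the distance, the TSS set, the peak list, the overlap, the window and the replicate used. Values of 2 of the named peaks are not reported here.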

Additional observations from a re-analysis of the deposited data

How the results depend on the processing

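The share of optimal peaks that were distant was 20.2% with a limit of 50 kb, 3.71% with 200 kb, 13.2% when only the 5′ end of each protein-coding gene counted and 1.25% when TSSs of genes of every type counted. The intronic share under the same 4 settings was 35.2%, 17.2%, 43.9% and 48.1%. The share found in both replicates was 78.5% in the conservative list, 97.0% in the top 50% of peaks by signal, 64.6% when 50% of the shorter peak had to overlap, 60.9% with summits within 100 bases and 97.5% against the full replicate lists. GATAA stood in 51.0% of the top 50%, in 54.4% of windows of 100 bases on each side and in 24.9% with 25 bases. Gaps with 3 or more distant peaks numbered 693 with 50 kb, 123 with 200 kb and 150 in the top 50%, against 336.

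With the highest peaks of 1 replicate alone in place of the optimal list, leaving out either replicate gave a distant share of 9.34 to 11.5%, an intronic share of 28.1 to 28.5%, a log2 signal ratio to nearer peaks of -0.18 to -0.072, GATAA in 35.8 to 41.9% and 318 to 386 such gaps. The larger distant share, the lower GATAA share and the ratio of -0.18 came without replicate 1. No value changed direction. The cause of these shifts was not tested.

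Alternatives chosen after seeing the data moved none of their results by more than the limits used: overlapping peaks merged (distant share 9.88%, GATAA 43.1%) and gene lists counted over peaks of both replicates only (6 became 4 for genes of other tissues, and 15 became 13 for blood progenitor genes). No paired analysis was possible because there is 1 group. With unknown depth, the absence of a peak from a list cannot be told apart from low depth.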
